A study of Mus musculus with 6 samples.

Results

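The most abundant transcripts among the genes that the authors listed as differing between Snai2-/- and control mesenchymal stem and progenitor cells (MSPCs) are described here. They are the genes whose total signal over both genotypes was at least 1500 on the authors' normalized scale. Genes of 9 families named by their symbols (collagens, solute carriers, zinc-finger proteins, chemokines and others) and 15 single genes, Snai2 and Spp1 among them, were left out by rule. Of the 1285 listed genes, 42 reached that total and 26 remained after the exclusions. The total is the value that chose the members, and every listed gene already had an unadjusted p below 0.05 for the contrast between the genotypes, so the differences below are described and not tested.

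The study sequenced RNA from sorted mouse bone marrow MSPCs, stromal cells of the niche in which blood stem cells reside. Cells that lacked CD45, Ter119 and CD31 and carried the Nes-GFP reporter were sorted, about 2000 per library, from mice aged 8 weeks. There were 3 control and 3 Snai2-/- libraries, from littermates, and the controls are labelled only as Control. Snai2-/- animals lack Slug, a zinc-finger repressor of the Snail family that binds E-box sequences, and the labels restrict the deletion to no cell type. Nes-GFP is a transgene driven by nestin regulatory sequences, and both genotypes were sorted through it. The authors' deposited table gives 1 mean per genotype, the ratio of the means, a p-value and the false discovery rate (FDR) by the step-up method for each gene. Values of single libraries were not analysed here, so no spread, number of replicates or sequencing depth stands beside a value. Whether 1 library carries a difference, and whether the genotypes overlap, cannot be seen from means. In bulk RNA, fewer cells of a type and less RNA per cell cannot be told apart.

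Marrow stromal cells secrete matrix, growth factor antagonists and hormone precursors, and present receptors and adhesion proteins on their surface. Lysosomes recycle matrix and lipid taken up by such cells, and the endoplasmic reticulum and Golgi fold and glycosylate what they export. By textbook function 9 of the 26 members were secreted proteins, 7 surface proteins, 4 lysosomal proteins, 1 a chaperone of the endoplasmic reticulum and 1 a Golgi enzyme. Of the others, 3 were intracellular regulators and 1, beta-catenin, was put with the cytoskeleton. None was an enzyme of central carbon, amino acid or fatty acid metabolism. That absence depends partly on the rule, which left out Scd1, a fatty acid desaturase gene, and on the p limit of the table.

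Most of the members had lower means in Snai2-/- cells. Of the 26 members, 17 were lower and 9 higher per the authors' deposited table, 65.4% and 34.6%. Over all 1285 listed genes 50.9% were lower and 49.1% higher. The members' median log2 ratio was -0.40 and that of all listed genes -0.36. Both are medians of genes chosen by p, which leaves none near 0, so they follow the split and add nothing to it. The majority of lower genes was also found when 26 genes were taken by the higher group mean (9 higher, 17 lower) or by total per kb of merged exons (11 and 15), and with a minimum total of 1000 (20 and 30) or 3000 (2 and 5). These sets overlap the members. By total per kb of the principal transcript 13 were higher and 13 lower, so 1 of the 2 length corrections ended it. With no family or gene left out, 18 of 42 genes were higher and 24 lower (57.1%). The summed mean of those 42 was higher in Snai2-/- cells, with a ratio of 1.49, so the split describes the members and not all abundant listed genes. Listed genes just below the limit, with totals from 500 to 1500 and the same exclusions, were divided into 58 higher and 57 lower.

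**Figure D1:**
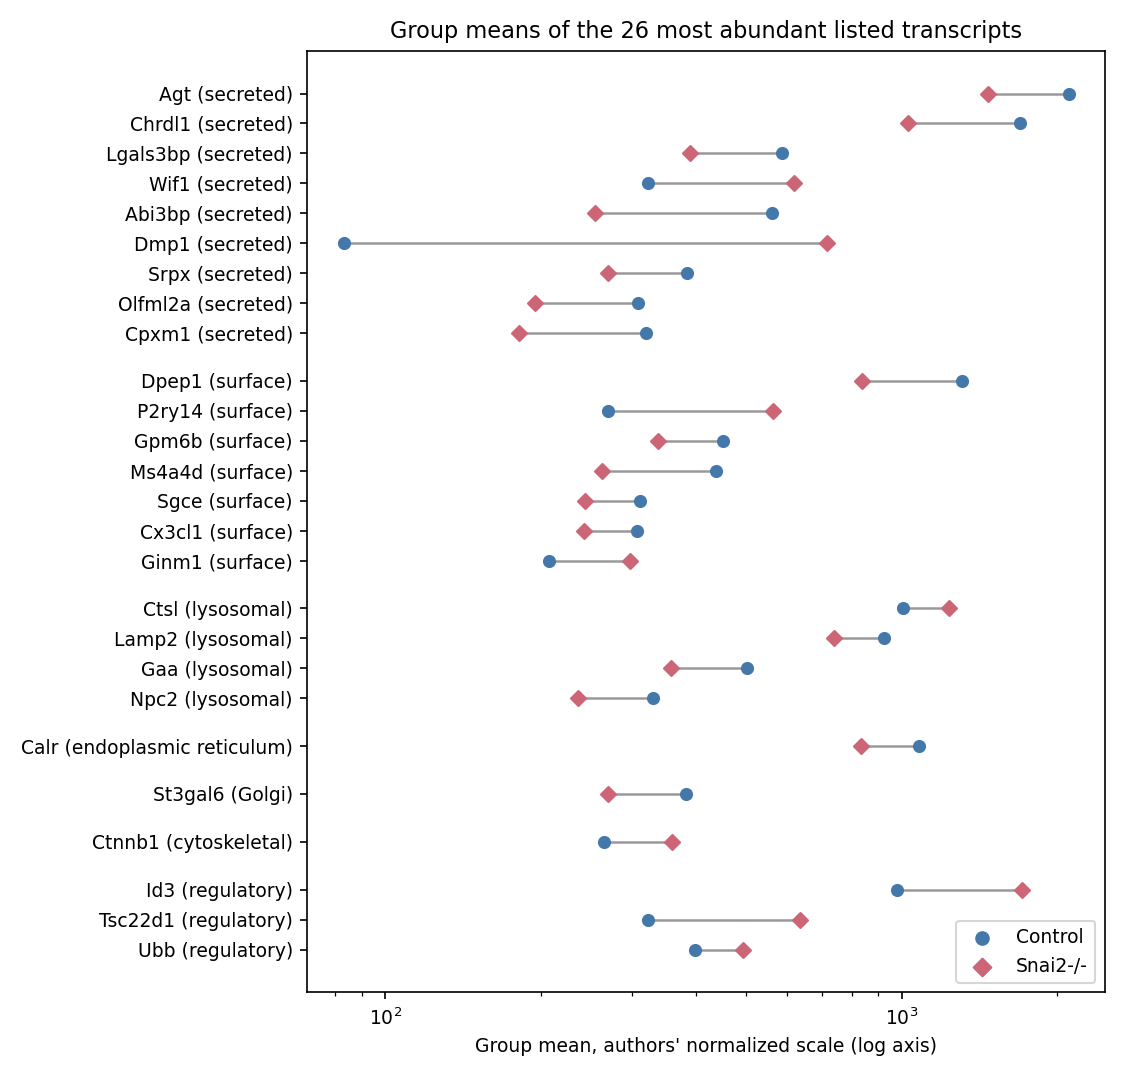
Group means of the 26 members on the authors' normalized scale (log axis), grouped by function, with a circle for control and a diamond for Snai2-/- cells. Means carry no error bars because only 1 mean per group was used. Of the 26 pairs, 17 have the control mean on the right, and Dmp1 spans the widest interval, from 83.1 in control to 716.3 in Snai2-/- cells.

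The differences of the members were mostly small. At least 1.5-fold differences were found in 12 of the 26 members (46.2%), against 75.3% of all listed genes. Of these 5 were higher and 7 lower, where 39.4% and 36.0% of listed genes were. At least 2-fold differences were found in 3 (11.5%), against 45.9%, with 2 higher and 1 lower, where 27.5% and 18.4% of listed genes were. Their median absolute log2 ratio was 0.52, against 0.94 for all listed genes and 0.55 for those with totals from 500 to 1500. The exclusions contribute to this. With no family or gene left out, 27 of 42 genes (64.3%) differed at least 1.5-fold and 12 (28.6%) at least 2-fold. The median absolute log2 ratio of those 42 was 0.73. The 3 members beyond 2-fold were Dmp1 and P2ry14, higher in Snai2-/- cells, and Abi3bp, lower. Without Dmp1 the largest ratio among the members was 2.09. FDR values of the members ran from 0.356 to 0.614 per the authors' deposited table. None of the 26 had an FDR below 0.05 there, and 0.0% of the 16718 genes tested did, whereas 7.69% of the genes tested, all members included, had an unadjusted p below 0.05. An unadjusted p below 0.01 was found in 5 of the 26 members, against 28.4% of listed genes.

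**Figure D2:**
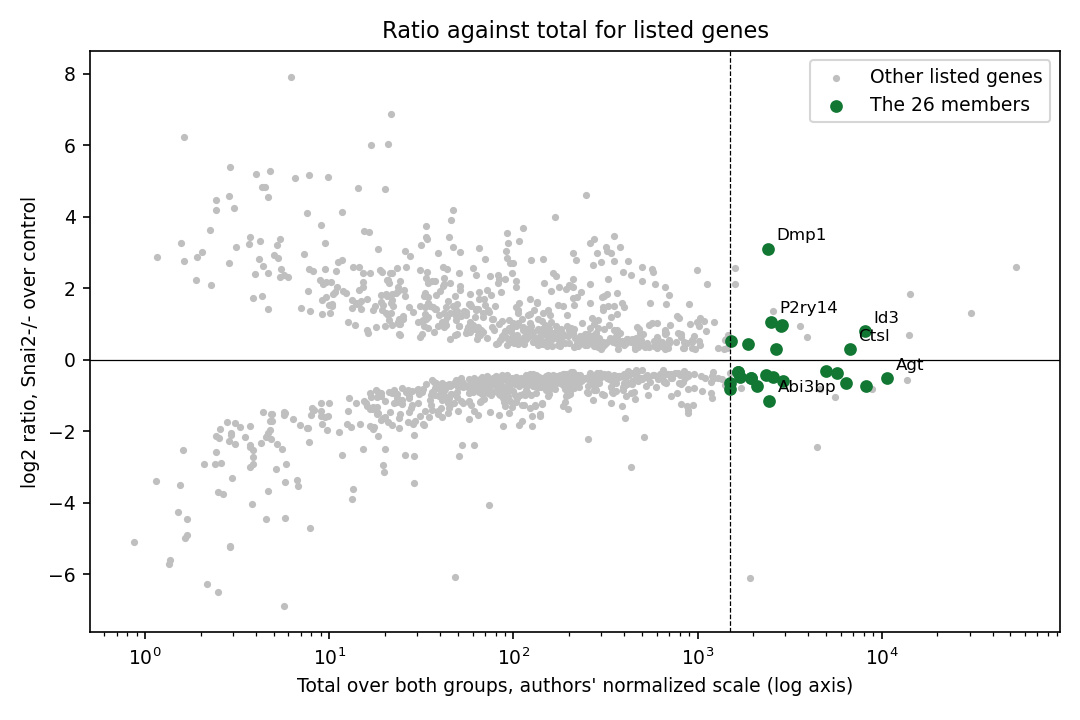
The log2 ratio of Snai2-/- over control against the total over both groups (log axis) for listed genes, with the 26 members in green and the limit of 1500 as a dashed line. The 7 genes with a group mean of 0.0001 are not drawn. Apart from Dmp1 at 3.11, the members lie between -1.14 and 1.06, while genes of low total reach far larger ratios.

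Snai2 itself is no member by rule, and its means of 636 in control and 9.20 in Snai2-/- cells per the authors' deposited table matched the labels. Of 15 identity genes of marrow MSPCs only the transcription factor gene Ebf1 was listed (6.67%, against 7.69% of all genes tested). It was at 210.3 in Snai2-/- and 362.5 in control cells per the authors' deposited table. Lepr, Cxcl12 and Pdgfra were not listed, so they either missed p below 0.05 or went untested, and their level was not seen. Of 17 leukocyte genes, a class that the CD45 gate selects against, 5 were listed (29.4%, against 7.69% of all genes tested). All 5 had the higher mean in Snai2-/- cells, where 49.1% of listed genes did. Their summed mean was 1137 in Snai2-/- and 235.5 in control cells per the authors' deposited table. Ptprc, which encodes CD45, was not listed. Of 11 erythroid and 12 endothelial genes, 1 and 2 were listed (9.09% and 16.7%, against the same 7.69%). The erythroid gene Car1 was at 137.1 in Snai2-/- and 45.7 in control cells per the authors' deposited table. The endothelial genes went opposite ways, Flt4 at 6.85 in Snai2-/- and 3.28 in control cells and Vwf at 1.38 and 23.0, per the authors' deposited table. The part of such cells in the differences below was not tested.

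Secreted proteins were the largest class, and 7 of its 9 members had lower means in Snai2-/- cells, against 65.4% of all members and 50.9% of listed genes. The class was assigned by hand. The 4 members on the wider list of secreted genes were 2 higher (Wif1, Ctsl) and 2 lower (Chrdl1, Dpep1). Of these, Ctsl and Dpep1 were put in other classes, so this split is not one of the 9. The listed genes of that wider list were mostly higher, 11 of 18. Summed over the class, the mean was 5122 in Snai2-/- and 6359 in control cells per the authors' deposited table, a ratio of 0.805. Without Agt, which alone held 33.1% of the control sum, the ratio of the sums was 0.858. Dmp1 pulled the other way, and without it the ratio was 0.702. These sums cover members only, and abundant secreted genes such as Col1a1 and Spp1 were left out by rule. Col1a1 alone had 15244 in Snai2-/- and 2546 in control cells per the authors' deposited table. The 16 genes left out, of any function, were 9 higher and 7 lower, with a ratio of summed means of 1.96. The class sum therefore does not describe abundant secreted transcripts as a whole.

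Agt was the member with the largest total. It encodes angiotensinogen, the precursor from which renin releases the angiotensin peptides (GRCm38 chromosome 8, 124556534 to 124569706, minus strand). Its mean was 1470 in Snai2-/- and 2103 in control cells, a ratio of 0.699 at p = 0.0103 and FDR 0.459 per the authors' deposited table. None of the other 14 genes of the renin-angiotensin system that were looked up, such as Ren1, Ace and Agtr1a, was listed. Agt was thus the only listed gene of that system among the 15 looked up (6.67%, against 7.69% of all genes tested). That list was written after the values were seen and includes Agt.

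Chrdl1 and Wif1, both secreted antagonists of growth factors, differed in opposite directions. Chrdl1 (chordin-like 1, chromosome X, 143285674 to 143394262, minus strand) binds bone morphogenetic proteins (BMPs) and keeps them from their receptors. Its mean was 1028 in Snai2-/- and 1693 in control cells, a ratio of 0.607 at p = 0.0237 and FDR 0.56 per the authors' deposited table. Wif1 (chromosome 10, 121033960 to 121100650, plus strand) encodes Wnt inhibitory factor 1, which binds Wnt ligands outside the cell. Its mean was 618.1 in Snai2-/- and 322.1 in control cells, a ratio of 1.92 at p = 0.0245 and FDR 0.565 per the authors' deposited table. Of 25 extracellular antagonists of BMP or Wnt signalling, 6 were listed (24.0%, against 7.69% of all genes tested), 5 higher and 1 lower, against 49.1% and 50.9% of listed genes. That list was written after the values were seen. Chrdl1 was the 1 lower, and the other 4 had far smaller means, the largest being that of Fst, the gene of follistatin, with 143.1 in Snai2-/- and 79.7 in control cells per the authors' deposited table.

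Dmp1 had the largest ratio among the members. It encodes dentin matrix protein 1, an acidic phosphoprotein of mineralizing matrix made by late osteoblasts and osteocytes (chromosome 5, 104202613 to 104214102, plus strand). Its mean was 716.3 in Snai2-/- and 83.1 in control cells, a ratio of 8.62 at p = 0.0124 and FDR 0.473 per the authors' deposited table. By mean it ranked 26 of the 26 members in control and 8 in Snai2-/- cells, so it reached the limit through the Snai2-/- mean. Of the 5 related phosphoproteins of mineralized matrix (the SIBLING family), only Dmp1 and Spp1 were listed (40.0%, against 7.69% of all genes tested). That list was written after the values were seen and includes Dmp1. Spp1 had a ratio of 2.48 per the authors' deposited table.

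The remaining secreted members were all lower in Snai2-/- cells. Abi3bp, a matrix protein gene (chromosome 16, 56477878 to 56690135, plus strand), showed the lowest ratio of all members. Its mean was 254.3 in Snai2-/- and 561.3 in control cells, a ratio of 0.453 at p = 0.00514 and FDR 0.385 per the authors' deposited table. Lgals3bp, which encodes a secreted glycoprotein that binds galectins (chromosome 11, 118392751 to 118402092, minus strand), had the smallest p of the members. Its mean was 389.0 in Snai2-/- and 585.0 in control cells, a ratio of 0.665 at p = 0.00298 and FDR 0.356 per the authors' deposited table. Cpxm1, a secreted member of the carboxypeptidase family, had 181.5 in Snai2-/- and 319.8 in control cells, a ratio of 0.568 at p = 0.0183 and FDR 0.518 per the authors' deposited table. Olfml2a, an olfactomedin-domain matrix protein gene, had 194.8 in Snai2-/- and 308.1 in control cells, a ratio of 0.632 at p = 0.00791 and FDR 0.431 per the authors' deposited table. These proteins share an extracellular place and no single pathway. Srpx, a sushi-repeat protein gene, had 270.2 in Snai2-/- and 383.4 in control cells, a ratio of 0.705 per the authors' deposited table. Its exons overlap those of Rpgr on the same strand by 208 bases.

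Of the 7 surface proteins 5 were lower (71.4%), close to the share over all members (65.4%). None of the 7 was on the wider list of surface genes, of which 6 listed genes were higher and 7 lower. Dpep1 was the most abundant of them by total. It encodes a dipeptidase held at the membrane by a lipid anchor, which cleaves dipeptides and leukotriene D4 (chromosome 8, 123186242 to 123201812, plus strand). Its mean was 835.8 in Snai2-/- and 1306 in control cells, a ratio of 0.64 at p = 0.0197 and FDR 0.53 per the authors' deposited table. P2ry14, a G protein-coupled receptor for UDP-glucose and other UDP-sugars (chromosome 3, 59113855 to 59153618, minus strand), was the surface member with the largest difference. Its mean was 563.4 in Snai2-/- and 269.7 in control cells, a ratio of 2.09 at p = 0.021 and FDR 0.537 per the authors' deposited table. Of 8 P2Y receptor genes 2 were listed (25.0%, against 7.69% of all genes tested). That list was written after the values were seen and includes P2ry14. The other listed one, P2ry1, a receptor for ADP, was lower, with 14.2 in Snai2-/- and 33.2 in control cells per the authors' deposited table.

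Among the other surface members, Ginm1, an integral membrane glycoprotein gene, was higher. Its mean was 298.2 in Snai2-/- and 207.3 in control cells, a ratio of 1.44 at p = 0.0232 and FDR 0.559 per the authors' deposited table. Exons of Ginm1 share 157 bases with an antisense gene. Ms4a4d, a multi-pass membrane protein gene of the MS4A family, had 262.6 in Snai2-/- and 436.6 in control cells, a ratio of 0.601 at p = 0.00567 and FDR 0.385 per the authors' deposited table. The MS4A genes include close paralogs, so reads could be shared and this value is less certain. Gpm6b, a membrane glycoprotein gene of the proteolipid family, had 336.5 in Snai2-/- and 450.6 in control cells, a ratio of 0.747 at p = 0.0146 and FDR 0.484 per the authors' deposited table. Sgce, which encodes epsilon-sarcoglycan of the dystrophin-associated complex, had 243.7 in Snai2-/- and 311.1 in control cells, a ratio of 0.783 at p = 0.0329 and FDR 0.602 per the authors' deposited table. Cx3cl1 encodes fractalkine, a chemokine made as a membrane-anchored adhesion protein and shed by proteases. It had 242.2 in Snai2-/- and 307.1 in control cells, a ratio of 0.789 per the authors' deposited table.

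Of the 4 lysosomal members 3 were lower, where 65.4% of all members and 50.9% of listed genes were. Their ratios lay between 0.71 and 0.8, a range not particular to this class. Lower members of other classes, such as Gpm6b (0.747) and Calr (0.774), lay in it too. No lower listed gene of any function had a ratio above 0.822. Lamp2, a major glycoprotein of the lysosomal membrane (chromosome X, 38401357 to 38456454, minus strand), averaged 739.3 in Snai2-/- and 924.4 in control cells. That is a ratio of 0.8 at p = 0.0324 and FDR 0.596 per the authors' deposited table. Gaa, the acid alpha-glucosidase that degrades lysosomal glycogen, had 357.0 in Snai2-/- and 502.5 in control cells, a ratio of 0.71 at p = 0.0195 and FDR 0.529 per the authors' deposited table. Npc2 encodes the carrier that takes cholesterol out of the lysosome with NPC1. Its mean was 235.8 in Snai2-/- and 329.2 in control cells, a ratio of 0.716 at p = 0.0171 and FDR 0.506 per the authors' deposited table. Ctsl, the protease cathepsin L (chromosome 13, 64359337 to 64370890, minus strand), was the higher one. Its mean was 1235 in Snai2-/- and 1003 in control cells, a ratio of 1.23 at p = 0.0376 and FDR 0.614 per the authors' deposited table. Its log2 ratio of 0.30 lies below the shift of 0.36 that setting the summed means of the listed genes equal takes from every gene alike, so on that scale its direction flips (-0.063) by construction. Col1a1 and Spp1 made up 82.3% of the gap in the summed means. Its ratio is close to the smallest ratio above 1 listed for any gene. Exons of Ctsl share 1742 bases with an antisense gene and 395 with a pseudogene, and the library chemistry named in the labels does not mark strand, so its value is less certain. Of 55 lysosomal genes looked up, 7 were listed (12.7%, against 7.69% of all genes tested), 5 lower and 2 higher, against 50.9% and 49.1% of listed genes. That list was written after the values were seen and includes the 4 members, so its share is no independent result. The 3 outside the members were the hydrolase genes Gusb, Arsa and Manba, with ratios of 0.822, 0.625 and 1.79 per the authors' deposited table.

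The folding and glycosylation members were lower. Calr encodes calreticulin, the calcium-binding lectin chaperone of the endoplasmic reticulum (chromosome 8, 84841850 to 84846934, minus strand). Its mean was 834.1 in Snai2-/- and 1078 in control cells, a ratio of 0.774 at p = 0.0161 and FDR 0.498 per the authors' deposited table. Of 28 genes of protein folding and the unfolded protein response, 3 were listed (10.7%, against 7.69% of all genes tested). All 3 were lower, where 50.9% of listed genes were. That list was written after the values were seen and includes Calr. The others were Hyou1, a chaperone, and Uggt2, a glucosyltransferase related to the folding sensor UGGT1, with ratios of 0.505 and 0.515 per the authors' deposited table. St3gal6, a Golgi sialyltransferase that caps glycans of selectin ligands, had 269.8 in Snai2-/- and 381.3 in control cells, a ratio of 0.708 at p = 0.0147 and FDR 0.484 per the authors' deposited table. Its exons overlap those of Dcbld2 on the other strand by 1603 bases, so reads of these genes could be mixed. Of 17 sialyltransferase genes 4 were listed (23.5%, against 7.69% of all genes tested), 3 lower and 1 higher, against 50.9% and 49.1% of listed genes. This list too was written after the values were seen, and it includes St3gal6.

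All 3 intracellular regulators, and beta-catenin, were higher on the authors' scale, where 34.6% of all members and 49.1% of listed genes were. The regulators were grouped by hand after the values were seen, so their shared direction is no independent result. Id3 encodes a helix-loop-helix protein that keeps bHLH transcription factors from binding DNA and is induced by BMPs (chromosome 4, 136143497 to 136145755, plus strand). Its mean was 1711 in Snai2-/- and 981.1 in control cells, a ratio of 1.74 at p = 0.0312 and FDR 0.591 per the authors' deposited table. Tsc22d1, a leucine zipper protein gene induced by TGF-beta (chromosome 14, 76414961 to 76507765, plus strand), had 635.8 in Snai2-/- and 322.2 in control cells, a ratio of 1.97 at p = 0.00763 and FDR 0.423 per the authors' deposited table. Of the 8 genes of the Id and TSC22 families only these were listed (25.0%, against 7.69% of all genes tested). That list was written after the values were seen and includes Id3 and Tsc22d1, so its share is no independent result. Id1 and Id2 were not listed, and whether they missed the p limit or went untested cannot be seen.

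Ubb, a polyubiquitin gene, had 493.3 in Snai2-/- and 398.0 in control cells, a ratio of 1.24 at p = 0.0261 and FDR 0.574 per the authors' deposited table. Its log2 ratio of 0.31 also lies below that shift of 0.36, so its direction flips with the summed means set equal (-0.052). Ctnnb1 encodes beta-catenin, which ties cadherins to the actin cytoskeleton and carries the Wnt signal to the nucleus (chromosome 9, 120929216 to 120960507, plus strand). Its mean was 358.2 in Snai2-/- and 265.3 in control cells, a ratio of 1.35 at p = 0.0249 and FDR 0.57 per the authors' deposited table. Its exons overlap those of Ulk4 on the other strand by 759 bases.

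Levels of different genes can be compared only per length, so each mean was divided by the length of the gene's principal annotated transcript. This holds only if the authors' values were not already corrected for length, which the sources used here do not say. Per kb, Agt led the members in control cells with 1112 and Id3 in Snai2-/- cells with 1339. Their places were exchanged between the genotypes, since Id3 came second in control with 767.7 and Agt second in Snai2-/- cells with 777.3 per kb. This held also for the merged exons of all annotated isoforms. Dpep1 and Calr followed in both genotypes, with 584.0 and 493.7 per kb in control and 373.8 and 381.9 in Snai2-/- cells. With only 1 mean per group, whether such neighbours differ beyond their spread cannot be said. Dmp1 moved from 30.0 to 259.1 per kb, and its rank from 26 to 9. Tsc22d1 ranked 10 in control and 5 in Snai2-/- cells on its principal transcript but 23 and 17 on merged exons, so places in the middle of the order depend on the isoform taken. The principal transcripts of the 9 higher members had a median length of 1795 bases, against 2858 for the 17 lower ones and 3109 for the listed genes matched to a gene model.

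**Figure D3:**
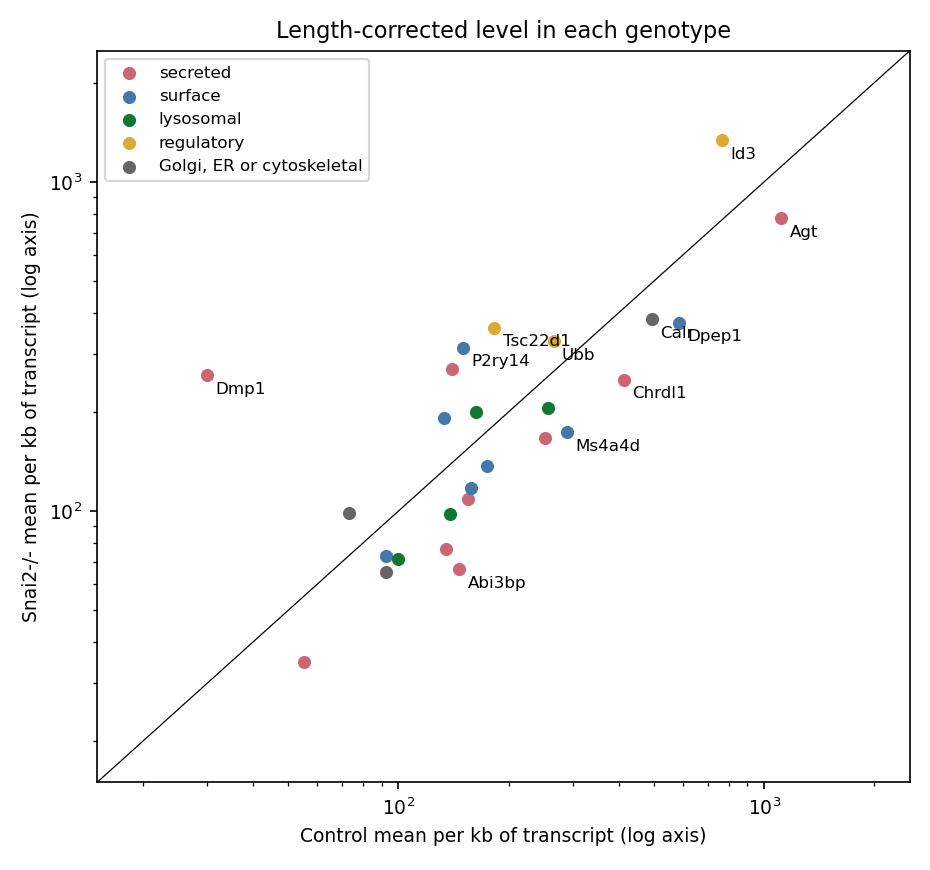
Snai2-/- mean against control mean of the 26 members, each per kb of the principal transcript (log axes), coloured by function, with the line of equal levels. Id3 and Agt lie at the top right on opposite sides of the line, and Dmp1 lies far above it at 30.0 in control and 259.1 in Snai2-/- cells.

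Abundant members were few on the wider function lists. Over all genes tested 7.69% were listed, 49.1% of them higher and 50.9% lower. Of 136 secreted or matrix genes 18 were listed (13.2%), 11 higher and 7 lower, and of 122 surface genes 13 were listed (10.7%), 6 higher and 7 lower. Of 134 cytoskeletal genes 16 were listed (11.9%), 5 higher and 11 lower, and their median log2 ratio was -0.46. Among them the linker gene Ahnak, with the largest total before any length correction, had 178.7 in Snai2-/- and 254.0 in control cells, and Myh9, a non-muscle myosin heavy chain, had 85.7 and 132.5, per the authors' deposited table. Ezr, which links actin to the membrane, went the other way with a ratio of 3.33 per the authors' deposited table. Of 143 metabolic genes 16 were listed (11.2%), 11 higher and 5 lower, and their median log2 ratio was 0.84. The largest total was that of Ckb, the brain-type creatine kinase, which lay just under the limit with a total of 1459 and a ratio of 1.63 per the authors' deposited table. No gene of the cytoskeletal or metabolic list reached the limit, whereas 4 genes of the secreted list and 1 of the surface list did. Only genes with an unadjusted p below 0.05 could reach it, so abundant genes that did not differ are not counted. Scd1, a fatty acid desaturase gene left out by rule, was not on the metabolic list. None of these listed genes had an FDR below 0.05 per the authors' deposited table.

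**Figure D4:**
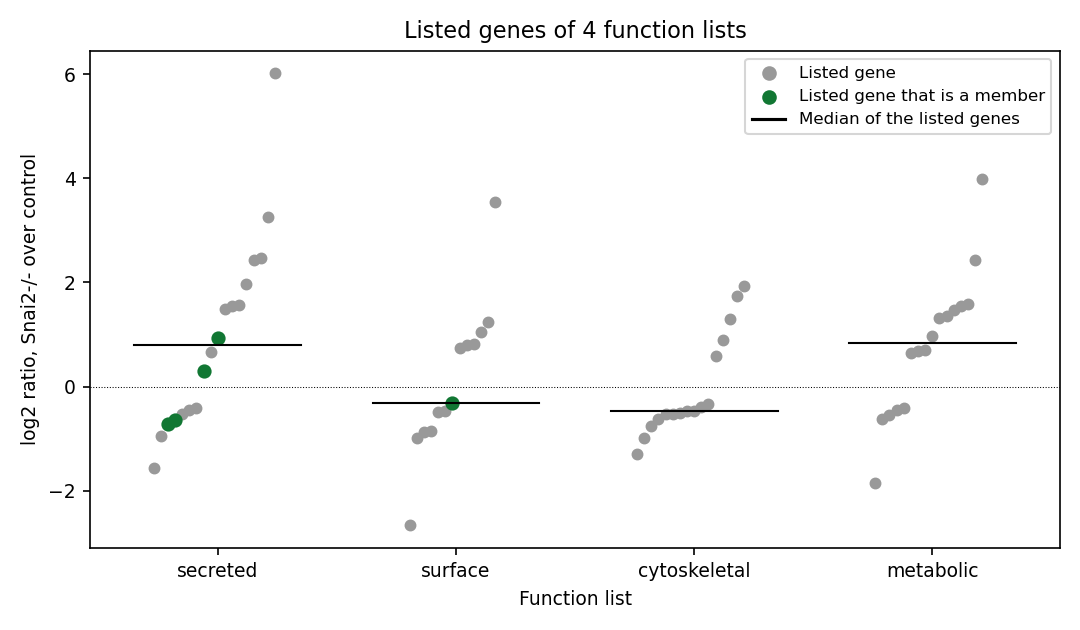
The log2 ratio of Snai2-/- over control for each listed gene of 4 function lists, sorted within a list, with members in green and the median of the listed genes as a line. Medians lie at 0.81 for secreted, -0.32 for surface, -0.46 for cytoskeletal and 0.84 for metabolic genes.

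The members were spread over 15 chromosomes, and all 26 lay in protein-coding gene models. Abi3bp and St3gal6 lie on chromosome 16 with Snai2, 41.8 and 43.8 Mb from it. At the limit, Ginm1, Olfml2a and Cpxm1 were just inside with totals of 1517, 1509 and 1504, and Shisa5, Ckb and Rpl4 just outside with 1491, 1459 and 1439, per the authors' deposited table. Shisa5 had a ratio of 0.781 and Rpl4 a ratio of 1.25 per the authors' deposited table.

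Snail family repressors are known to bind the E-box CAGGTG, so promoter windows were searched for these letters on both strands (CACCTG on the other). RefSeq windows on GRCm38.p6, from 250 bases before to 50 after a start, were matched for 23 of the 26 members. Sgce, Chrdl1 and Abi3bp had no window in the table used. Of the 23 members with a window 5 held the motif in at least 1 (21.7%), close to the 22.6% of all genes. By direction these were 4 of the 9 higher members and 1 of the 14 lower members with a window, counts too small to compare. The higher members have more annotated starts, 19 windows for 9 genes against 15 for 14 genes, so shares are given per window as well. Per window the motif was found in 21.1% of those of higher members, 6.67% of those of lower members and 20.2% of all 32851 windows. The matches are shown with 12 bases on each side, 5′ to 3′ on the strand of the gene and with the motif in capitals, because they are all the matches among the members.
Dmp1 (chr5:104202513-104202542, plus strand, upstream of the gene model): gggtcccggtgaCACCTGtgatgtcagtca
Wif1 (chr10:121033869-121033898, plus strand, upstream of the gene model): cccgttttcattCACCTGgcgcaggcgagc
P2ry14 (chr3:59131545-59131574, minus strand, in an intron, before an internal start): tggacacccacaCAGGTGtgctttactctc
Tsc22d1 (chr14:76488420-76488449, plus strand, at an internal start): acaccagcaaatCACCTGggaagccaactc
Gaa (chr11:119267899-119267928, plus strand, touching an annotated exon): ctgccattccaaCACCTGcgctcactgtcg

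Dmp1, the member with the largest ratio, has more than 1 RefSeq start. Its window at chr5:104197325-104197624 held no motif. In its window that reaches the GENCODE gene model, the motif began 92 bases before the RefSeq start. The 246 bases of that window before the gene model are shown to place the motif, again in capitals.
Dmp1 promoter (GRCm38.p6 chr5:104202367-104202612, plus strand): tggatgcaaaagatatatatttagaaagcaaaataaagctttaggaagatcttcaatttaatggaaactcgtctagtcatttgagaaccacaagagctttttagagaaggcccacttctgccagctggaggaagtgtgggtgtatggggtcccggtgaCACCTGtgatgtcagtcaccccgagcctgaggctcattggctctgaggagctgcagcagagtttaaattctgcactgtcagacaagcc
A match describes letters in a window and shows neither binding nor a cause of a difference. Id3 and Agt, the leading members per kb, held no such letters in their windows.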

How the data were processed

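The 6 libraries were grouped by the genotype in their titles. Per the labels' protocols, SMART-Seq v4 amplified the RNA of the sorted cells and Nextera XT made the libraries. HTSeq, Trim Galore, edgeR 3.12.0 and mm10 stand without roles in the submitters' processing notes. Aligner, annotation and test: not given in the sources used here. Per the file headers, the deposited table holds for each gene the total, the least-squares mean per group, the ratio and signed fold change of mutant over wildtype, and the p-value with its FDR. Mutant was taken to be the Snai2-/- group, wildtype the Control group. The deposited means and totals are a normalized signal of unstated unit, since 0 of 1285 totals are whole and in 1285 rows the total is 3 times the summed means within a relative 1e-06. Depth is unknown and no interval can be given.

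The model planned for counts was not fitted, because the file used here holds no library counts. Whether each library came from its own animal is not stated, so the authors' p may rest on partly technical spread. The number of genes tested, 16718, was recovered from the FDR values by a step tested on simulated data. Members and lists were chosen with earlier results of these data known. Classes of single members and the smaller lists (lysosome, folding, renin-angiotensin, antagonists, Id and TSC22, SIBLING, sialyltransferases, P2Y) were written after the members' values were seen. Every member could be named. Full values were planned for the 12 largest totals and, per class, the 6 largest ratios. Gene models are GENCODE M21 on GRCm38, which mm10 denotes, with 1-based coordinates. Of the listed symbols 1247 matched 1 model, and all 26 members did. Principal transcripts are by APPRIS. Alternatives were other limits and measures of abundance, fold and p limits, a pseudocount and equal summed means. Python 3.11.15, numpy 2.4.6, pandas 2.3.3 and matplotlib 3.10.9 were used.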

Additional observations from a re-analysis of the deposited data

How the results depend on the processing

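No paired analysis was possible because only group means were used. For the same reason left-out libraries, other normalizations, filters and count models were not run. The count of higher and lower members moved from 9 and 17 to 20 and 30 at a minimum total of 1000, to 2 and 5 at 3000, to 5 and 7 at 1.5-fold or more and to 1 and 4 at p below 0.01. With no family or gene left out it was 18 and 24. The share of lower genes was 60.0%, 71.4%, 58.3%, 80.0% and 57.1% in these sets. Taken by the higher group mean, the split was again 9 and 17. Taken by total per kb of transcript it was 13 and 13, and per kb of merged exons 11 and 15. Among totals from 500 to 1500 it was 58 and 57. The merged exons, the totals from 500 to 1500 and the motif count before the start alone (4 of 23 members, against 5 in the whole window) were chosen after seeing the data.

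With a pseudocount of 1 all 26 log2 ratios stayed within 0.05 of their first value. Setting the summed means of all listed genes equal shifted every log2 ratio by 0.36 downward, the median from -0.40 to -0.76 and the split to 7 and 19. It reversed Ctsl (-0.063) and Ubb (-0.052), as such a shift must for any log2 ratio between 0 and 0.36. Of the gap in summed means 82.3% came from Col1a1 and Spp1. On the function lists alone, without members placed by hand, the secreted class held 2 higher and 2 lower members, the surface class 0 and 1, and the cytoskeletal class 0. The fixed secreted list holds Ctsl and Dpep1, and the fixed surface list Lamp2, which were described under other classes. This departed from the plan, by which only members on no list were to be classed by hand. None of the 7 surface members described is therefore on the fixed surface list.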
